A study of Mus musculus with 4 samples.

Results

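The genes described here are 10 markers of the choroid plexus, Ttr, Kl, Clic6, Folr1, Enpp2, Aqp1, Otx2, Sostdc1, Trpm3 and Prlr, taken by single gene symbol from the array's probe annotation. Of the 10, 8 had a probe set with that symbol alone, 1 each, among 19938 genes measured, and Enpp2 and Prlr are not analysed here. Expression was measured in C57BL/6J mouse fetuses on embryonic day 18, in tissue labelled forebrain and tissue labelled hippocampus. The dams received either phosphate-buffered saline (PBS) or ethanol (2.9 g per kg per day, a 15% solution by volume) by the intragastric route, daily for 5 days between embryonic days 8 and 12. The 4 groups are forebrain after PBS, hippocampus after PBS, forebrain after ethanol and hippocampus after ethanol, each with 1 array. Differences of 2 arrays, within a tissue or within a treatment, are therefore given without a p-value. Litters and any pooling of fetuses are not given in the labels, and a difference between litters that goes with treatment cannot be told apart from ethanol.

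The choroid plexus is a frond of secretory epithelium over fenestrated vessels that hangs into the brain ventricles and makes cerebrospinal fluid. In the telencephalon it arises from the dorsal midline beside the cortical hem, is attached next to the fimbria of the hippocampus, and is joined by stroma that is continuous with the meninges. Its epithelium is known for secreting transthyretin, for moving water, ions and folate between blood and fluid, and for keeping the homeobox factor Otx2. Dissected fetal hippocampus and forebrain can each hold some of it. In such bulk samples, more cells of a type and more RNA per cell cannot be told apart.

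Short RefSeq sequences are shown for Otx2 and Trpm3. Otx2 protein is known to bind the letters TAATCC. These were searched on both strands in the 250 bases before each RefSeq transcription start (GRCm38.p6), where 6.25% of all 32851 such windows hold a match. Of the 10 markers 5 had windows in the table, 11 in all, some of them overlapping, and 1 window had a match. It is 1 of 4 windows of Otx2 itself, with the match on the minus strand of the gene, beginning 211 bases before that start. The 30 bases around it are shown because this gene encodes the factor that reads the motif, with the match, reverse complement GGATTA, in capitals (chr14:48665303-48665332, minus strand of the chromosome).
Otx2: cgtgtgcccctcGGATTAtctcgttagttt
A match is a description of letters and not a binding site. A second short sequence belongs to Trpm3, whose gene span (chr19:22137797-22995410) holds the microRNA gene Mir204. This microRNA is known from choroid plexus and retinal pigment epithelium, and both mature arms are shown with the seed, bases 2 to 8, in capitals.
mmu-miR-204-5p: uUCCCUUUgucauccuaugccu
mmu-miR-204-3p: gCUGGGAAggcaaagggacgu
The arms lie at chr19:22750610-22750631 and chr19:22750649-22750669 on the plus strand, and their seeds differ.

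Most of the markers read highest on the hippocampus PBS array. All values are log2 expression values as deposited, so that a difference of 1 is a doubling. The filter value is 7.11, the median of all probe set means, and a gene was kept when its mean over the 4 arrays reached it. Of the 8 measured markers 7 were kept, all of them above 7.11 on every array, and Kl was not. The hippocampus PBS array was the highest of the 4 for 6 of the 8 markers, all 6 of them kept, while it was the highest for 38.5% of all 11013 kept genes. The forebrain PBS array was the lowest for 5 of the 8. Over the 7 kept markers, the median deviation from each gene's own mean was 0.28 on the hippocampus PBS array, -0.05 on the hippocampus ethanol array, -0.08 on the forebrain ethanol array and -0.17 on the forebrain PBS array.

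**Figure D1:**
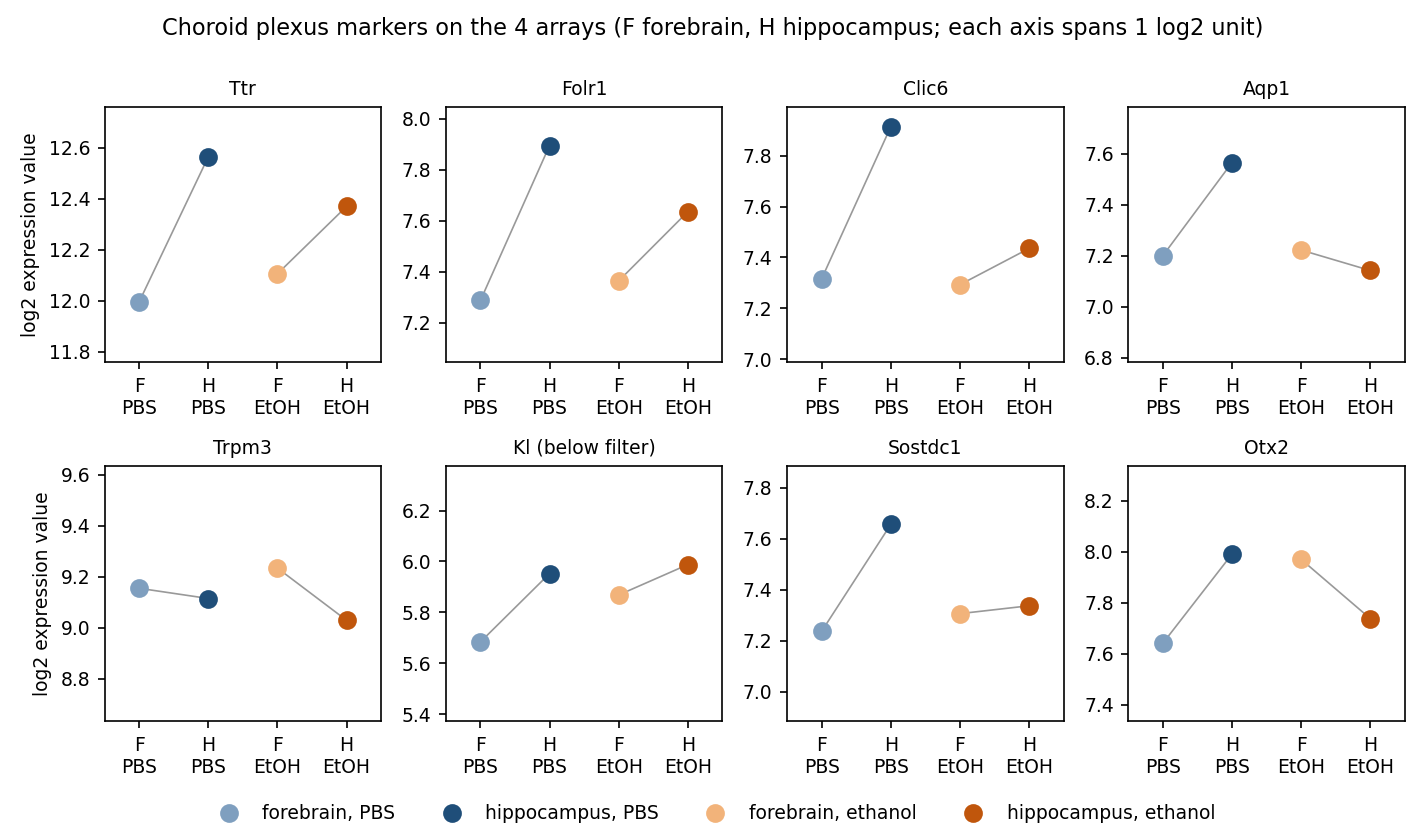
Log2 expression value (vertical axis, 1 log2 unit in each panel) of the 8 measured markers on the forebrain (F) and hippocampus (H) arrays after PBS or ethanol (EtOH), 1 point per array, with lines joining the tissues of a treatment. The hippocampus PBS array is the highest for 6 markers, and not for Trpm3 or Kl, and no error can be drawn with 1 array per group.

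The secreted and membrane carriers came first. Ttr encodes transthyretin, the carrier of thyroxine and of retinol-binding protein that this epithelium secretes into cerebrospinal fluid. It read 12.00 in forebrain and 12.57 in hippocampus after PBS, and 12.11 in forebrain and 12.37 in hippocampus after ethanol. Both hippocampus arrays were thus above both forebrain arrays. Folr1, the folate receptor alpha that carries folate across the epithelium, read 7.29 in forebrain and 7.89 in hippocampus after PBS, and 7.36 and 7.63 after ethanol. Its order of arrays was that of Ttr. The 2 genes had nearly the same differences between tissues, 0.57 for Ttr and 0.61 for Folr1 after PBS, and 0.26 and 0.27 after ethanol.

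Channel genes came next. Clic6, a chloride intracellular channel family member of secretory epithelia, read 7.32 in forebrain and 7.91 in hippocampus after PBS, and 7.29 and 7.44 after ethanol. It stood out on the hippocampus PBS array, and the other arrays lay within 0.14 of each other. Aqp1, the water channel of the apical membrane, read 7.20 in forebrain and 7.57 in hippocampus after PBS, and 7.22 and 7.14 after ethanol. Here the hippocampus ethanol array was the lowest of the 4, below both forebrain arrays. Trpm3, a cation channel gene that is also expressed in neurons, read 9.15 in forebrain and 9.11 in hippocampus after PBS, and 9.23 and 9.03 after ethanol. It was the marker that varied least, with a range of 0.20, and the one whose profile lay farthest from the median profile of the markers. A single probe set assigned to Mir204 read between 6.12 and 6.22 on the 4 arrays, below the filter value, and is not a measure of either mature arm.

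Receptors, signalling inhibitors and the transcription factor made up the rest. Kl, the membrane protein klotho that serves as a coreceptor for fibroblast growth factor 23, read 5.68 in forebrain and 5.95 in hippocampus after PBS, and 5.87 and 5.99 after ethanol. Its values are below the filter and therefore carry less weight, though both hippocampus arrays were above both forebrain arrays. Sostdc1, a secreted antagonist of bone morphogenetic proteins that also modulates Wnt signalling, read 7.24 in forebrain and 7.66 in hippocampus after PBS, and 7.31 and 7.34 after ethanol. It had the profile closest to the median of the markers, with 1 high array and 3 near each other. Otx2, the homeobox factor needed to form and maintain this epithelium, read 7.64 in forebrain and 7.99 in hippocampus after PBS, and 7.97 and 7.74 after ethanol. Its forebrain ethanol array was nearly as high as its hippocampus PBS array. Otx2 is also known from diencephalon and midbrain.

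The comparison of tissues asked at what level these markers read in each dissection. After PBS, 7 of the 8 measured markers were higher in hippocampus than in forebrain, and 6 of the 7 kept ones. The share of kept genes higher in hippocampus was 52.4%. The median over the kept markers was 0.42, against 0.01 over all kept genes. A log2 difference of 0.322 was used to count genes as apart without replicates. By that measure 6 of the 7 kept markers were higher, where 1.53% of kept genes were. Folr1 was 1.52-fold higher, Clic6 1.51-fold, Ttr 1.48-fold, Sostdc1 1.34-fold, Aqp1 1.29-fold and Otx2 1.27-fold. At 1.5-fold, 2 of the 7 remained, Folr1 and Clic6, where 0.0908% of kept genes passed. The exception was Trpm3 at -0.04.

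After ethanol, the same comparison gave smaller differences. Of the 8 measured markers 5 were higher in hippocampus, and 4 of the 7 kept ones, where 30.4% of kept genes were higher. The median over kept markers was 0.03, against -0.06 over all kept genes, and none was higher by 0.322, where 1.2% of kept genes were. Folr1 at 0.27, Ttr at 0.26, Clic6 at 0.14, Kl at 0.12 and Sostdc1 at 0.03 were on the higher side. Otx2 at -0.23, Trpm3 at -0.20 and Aqp1 at -0.08 were on the lower side, Aqp1 turning to 0.01 with arrays centred on kept genes, a setting in which 57.6% of kept genes were higher. Past 0.322, 132 kept genes were higher and 603 lower as deposited, 193 and 394 after quantile normalization, and 315 and 264 with centring on kept genes, where Ttr and Folr1 passed. The 2 tissue comparisons share no array, although the labels leave it unsaid whether their RNA came from separate litters. Higher in hippocampus after either treatment were 5 of the 8, Ttr, Folr1, Clic6, Kl and Sostdc1, and 29.0% of all 19938 genes.

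Over both treatments, Ttr was higher in hippocampus by 0.42 on the log2 scale (limma, SE 0.0656, Benjamini-Hochberg adjusted p = 0.0417 over 11013 genes, higher in both treatments). Over all kept genes, 0.109% were called higher in hippocampus and 1.02% lower, which is 12 and 112 genes, against 21 and 45 with arrays centred on kept genes. The call for Ttr was lost without the expression filter (limma adjusted p = 0.0757) and without a variance trend (limma adjusted p = 0.136), and ranged down to 0.00696 under the other settings. The next markers by limma were Folr1 at 0.44 (SE 0.103, adjusted p = 0.109) and Clic6 at 0.37 (SE 0.117, adjusted p = 0.202), which did not pass. For the other kept markers limma gave 0.23 for Sostdc1, 0.14 for Aqp1, 0.06 for Otx2 and -0.12 for Trpm3, none called. The fit has 1 residual degree of freedom, which is the unequal response of the tissues. Limma joins it to a variance trend over all kept genes, giving 7.53 total degrees of freedom. The SE of Ttr thus rests largely on other genes. A p-value refers only to these 4 arrays and does not measure a spread between litters or fetuses.

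**Figure D2:**
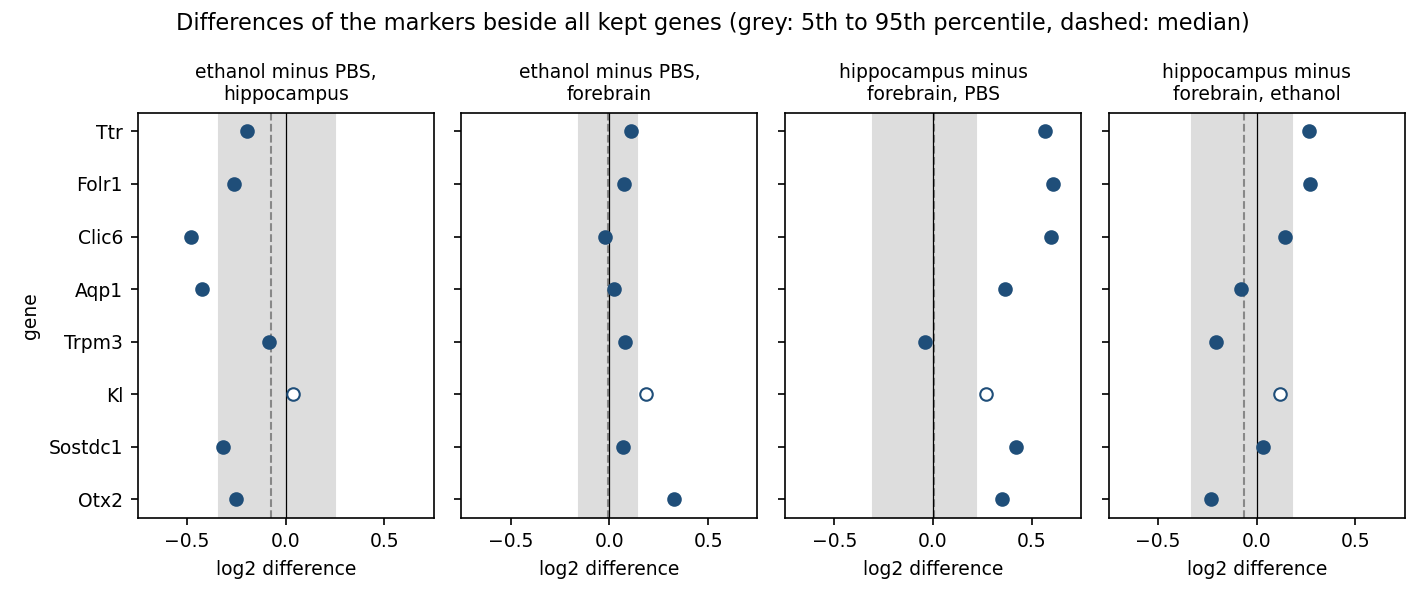
Log2 differences (horizontal axis) of the 8 markers in 4 comparisons of 2 arrays each, with filled points for kept genes and an open point for Kl, beside the 5th to 95th percentile (grey) and the median (dashed) of 11013 kept genes. After PBS, 6 kept markers lie above the 95th percentile of 0.22 for hippocampus minus forebrain, and after ethanol Ttr and Folr1 lie above that of 0.18.

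The comparison of ethanol with PBS asked whether these markers differ in each tissue after maternal ethanol. In hippocampus all 7 kept markers were lower in the ethanol array, where 69.3% of kept genes were lower, and 6 of 7 were lower once each array was centred on the median of kept genes, with Trpm3 then at 0.01. The share of all kept genes that were lower depended on the scaling, at 54.8% after quantile normalization and 43.6% with centring on kept genes. After quantile normalization all 7 markers were lower, but Trpm3 only at -0.00033. As deposited, the median of the kept markers was -0.26, against -0.08 over all kept genes. Clic6 was 1.39-fold lower and Aqp1 1.34-fold lower, and these 2 of 7 were lower by at least 0.322 on the log2 scale, where 5.95% of kept genes were. Sostdc1 at -0.319 was just short of that. Past the same difference 349 kept genes were higher and 655 lower as deposited, 488 and 359 after quantile normalization, and 649 and 251 with centring on kept genes, while Clic6 and Aqp1 were lower past it in each of these settings. Folr1 at -0.26, Otx2 at -0.25, Ttr at -0.20 and Trpm3 at -0.09 followed. Kl, below the filter, was at 0.04, while 67% of the genes below the filter were higher in that ethanol array. In the values as deposited, the array difference thus went with level, lower for most kept genes and higher for most genes below the filter. This comparison shares the hippocampus PBS array with the tissue comparison after PBS, so that a single array that reads high for these markers enters both.

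In forebrain 6 of the 7 kept markers were higher after ethanol, where 46.1% of kept genes were, and Kl was higher too. Their median was 0.08, against -0.01 over all kept genes. Only Otx2 of the 7, at 1.26-fold and 0.329 on the log2 scale, was just past 0.322, where 0.336% of kept genes were. Kl was higher by 0.18 and Ttr by 0.11. Trpm3 and Folr1 stood at 0.08, Sostdc1 at 0.07 and Aqp1 at 0.02, and Clic6 at -0.02. Beside Otx2, markers of thalamus and diencephalon were higher in forebrain after ethanol for 7 of 8 kept genes (median 0.09), and the log2 of their summed level was 11.52 after PBS and 11.70 after ethanol. In hippocampus the same markers were also higher after ethanol for 7 of 8 kept genes (median 0.25), where Otx2 was at -0.25. The part of these markers in either Otx2 difference was not tested.

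Tested over both tissues with limma, none of the 7 kept markers was called for ethanol, with adjusted p-values of 0.529 and above, and 0 markers had an unadjusted p under 0.05. Over all kept genes limma called 0% higher and 0% lower after adjustment and gave 1075 genes with an unadjusted p under 0.05. The limma estimates ran from -0.25 for Clic6 (SE 0.117) and -0.20 for Aqp1 (SE 0.117), through -0.13 for Sostdc1, -0.09 for Folr1 and -0.04 for Ttr, to 0.04 for Otx2. Trpm3 was at -0.0031. The hippocampus minus forebrain difference of the ethanol differences was below 0 for all 7 kept markers, where 67.5% of kept genes were, and for Kl, with a median of -0.39 over the kept ones, against -0.06 over all kept genes. As deposited, 6 of the 7 kept markers were lower in hippocampus and higher in forebrain after ethanol, as were 27% of kept genes. Clic6 was lower in both. The difference was -0.58 for Otx2, -0.45 for Clic6, -0.45 for Aqp1 and -0.39 for Sostdc1. It uses every array and has no test.

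A longer list of 38 other genes of choroid plexus epithelium, of which 34 were measured and 18 kept, gave other medians than the 10 markers. After PBS, 8 of its 18 kept genes were higher in hippocampus (median -0.02), and after ethanol 3 of 18 (median -0.18). In hippocampus 13 of 18 were lower after ethanol (median -0.09), and in forebrain 10 of 18 were higher (median 0.03), with all-gene shares as given for the markers. Centring on kept genes raises every ethanol difference in hippocampus by 0.10, so that list medians near 0 there change sign with it, to 0.01 for this list, 0.05 for cilia, 0.05 for folate transport, 0.06 for lysophosphatidic acid, 0.03 for prolactin receptor, 0.03 for TRPM, 0.01 for hippocampal field, 0.0047 for endothelial and 0.06 for erythroid genes. Any single gene lower there by less than that shift changes sign too. Its kept genes with the largest ethanol difference in hippocampus were the potassium channel gene Kcnj13 at -0.70, the carbonic anhydrase gene Car12 at -0.49, the sodium pump subunit gene Atp1b1 at 0.43 and the serotonin receptor gene Htr2c at -0.31. Kcnj13 read 7.55 in forebrain and 7.91 in hippocampus after PBS, and 7.33 and 7.21 after ethanol. Car12 read 7.10 and 7.64 after PBS, and 7.14 and 7.15 after ethanol, with the hippocampus PBS array alone high. Htr2c read 8.47 and 8.83 after PBS, and 8.58 and 8.52 after ethanol. Atp1b1, which neurons also express, was lowest on the hippocampus PBS array, at 10.02. These genes were named for their large ethanol difference in hippocampus. That difference uses the hippocampus PBS array, so a high or low reading there follows partly from the choice.

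Other genes of that list read lower in hippocampus. By limma, Igf2, a growth factor gene of choroid plexus and meninges, was lower in hippocampus (log2 difference -0.77, SE 0.0834, adjusted p = 0.0175), and the bicarbonate transporter gene Slc4a10, also neuronal, was at -0.44 (SE 0.0712, adjusted p = 0.0440), a call lost with arrays centred on kept genes (limma adjusted p = 0.0540). Both were named after their values were seen. The 16 measured genes of the list that fell below the filter were higher in hippocampus for 14 after PBS, where 53.3% of all genes below the filter were, and for 13 after ethanol, where 68.1% were. In hippocampus 12 of these 16 were lower after ethanol, where 32.7% of the genes below the filter were. Among them, named after their values were seen, the potassium channel subunit gene Kcne2 read 6.45 in forebrain and 7.06 in hippocampus after PBS, and 6.29 and 6.67 after ethanol. The tight junction gene Cldn2 read 5.76 and 6.09 after PBS, and 5.61 and 5.92 after ethanol. The differences between tissues are 0.61 and 0.38 for Kcne2, and 0.33 and 0.30 for Cldn2. The medians of the 16 were 0.22 after PBS and 0.10 after ethanol. On the lower side were 2 of the 16 after PBS and 3 after ethanol, among them the cadherin gene Cdh1 at -0.63 and -0.18.

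**Figure D3:**
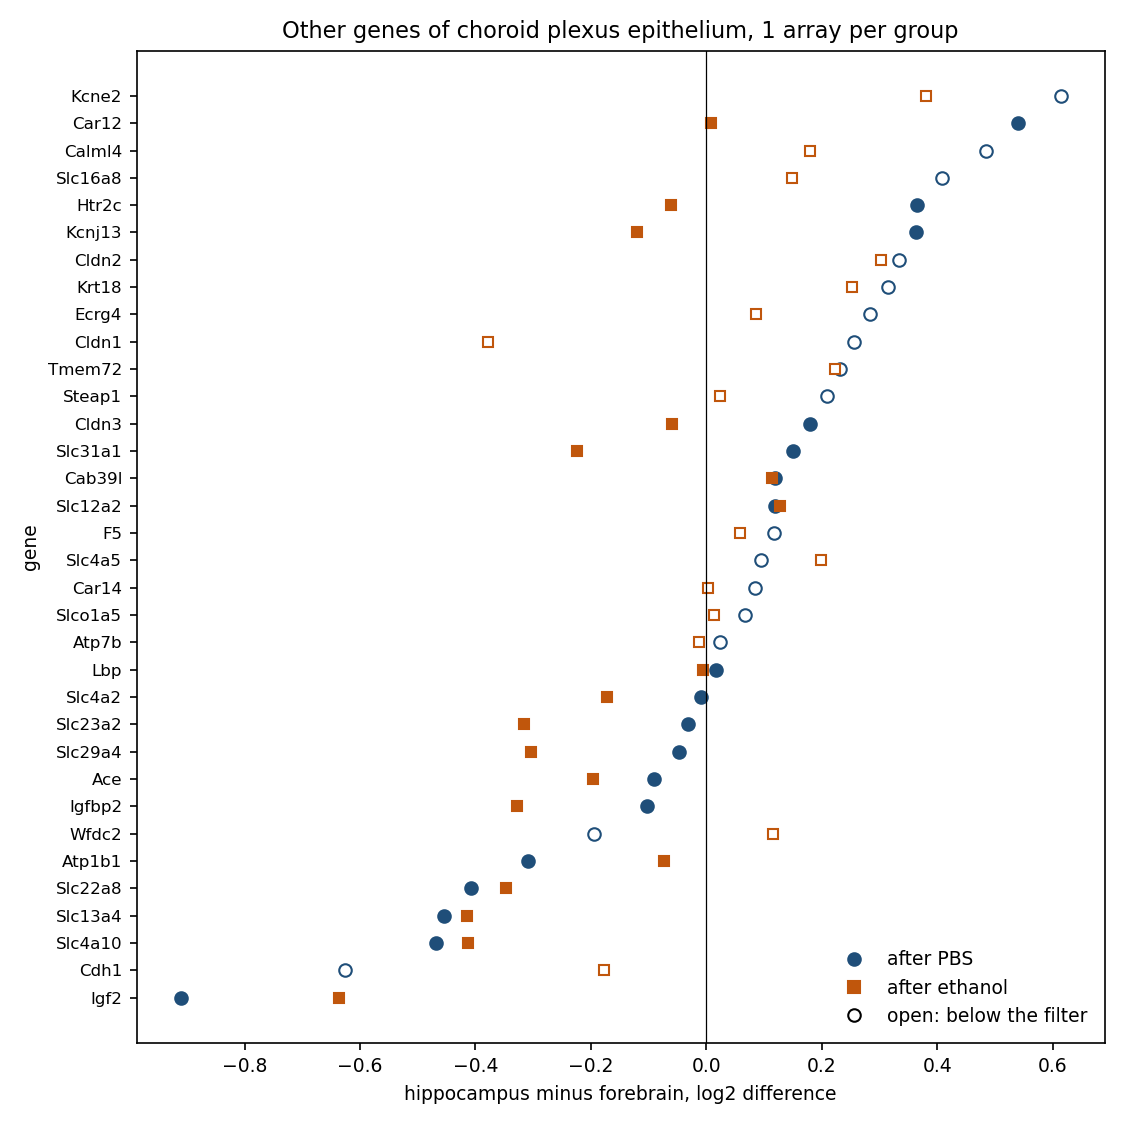
Hippocampus minus forebrain log2 difference (horizontal axis) of the 34 other measured genes of choroid plexus epithelium, after PBS (blue circles) and after ethanol (orange squares), with open symbols for the 16 genes below the filter. After PBS 22 of the 34 are above 0, 8 of the 18 kept and 14 of the 16 below the filter, where 10528 of all 19938 genes are. Values run from Igf2 at -0.91 to Kcne2 at 0.61.

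Partner genes of the markers are read against the 69.3% of kept genes that were lower in hippocampus after ethanol. Of the genes around klotho, 6 were kept (median -0.23), and the 5 FGF receptors and proteases among them were lower in hippocampus after ethanol, also with centring on kept genes, while the ligand gene Fgf15 stood at -0.0034. The largest were Fgfr2 at -0.40, Fgfr3 at -0.33, Fgfr1 at -0.31 and the sheddase gene Adam17 at -0.15. Fgfr2 and Fgfr1 read higher in hippocampus than in forebrain after PBS, by 0.31 and 0.33, and at -0.08 and 0.06 after ethanol. Both were named for their ethanol difference in hippocampus, so a high reading on the hippocampus PBS array follows partly from the choice. Over the 6 kept genes the median between tissues was 0.08 after PBS and -0.10 after ethanol. After PBS 1 of the 6 was higher in hippocampus by at least 0.322 and 1 lower, where 168 and 503 of all 11013 kept genes were. After ethanol 0 of the 6 were higher and 1 lower, where 132 and 603 of all kept genes were. Among 10 kept receptors and modulators around Sostdc1, 9 were lower in hippocampus after ethanol (median -0.14), 6 of them with centring on kept genes, led by the receptor gene Bmpr1b at -0.46 and the Wnt coreceptor genes Lrp5 at -0.31 and Lrp6 at -0.26, with the Dickkopf family gene Dkk3 at -0.23. Folate transport and retention genes other than Folr1 kept 5 members with a median of -0.05, among them the mitochondrial carrier gene Slc25a32 at -0.27, the reduced folate carrier gene Slc19a1 at -0.23, the hydrolase gene Ggh at 0.11, the synthetase gene Fpgs at -0.05 and the proton-coupled carrier gene Slc46a1 at 0.02. Folr2 was below the filter.

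Thyroxine and retinol carriers and receptors, which transthyretin serves, kept 9 genes, with 6 lower in hippocampus after ethanol (median -0.11), a share near that of all kept genes. The retinoic acid binding protein gene Crabp2 differed by 0.46, the amino acid and thyroid hormone transporter gene Slc7a8 by -0.34, the thyroxine transporter gene Slco1c1 by -0.21 and Crabp1 by 0.18. The 9 kept genes for lysophosphatidic acid receptors, phosphatases and ectoenzymes around Enpp2 had a median of -0.04, with Enpp5 at 0.21, Lpar1 at -0.21, Lpar2 at -0.18 and Lpar6 at -0.14. The receptor gene Lpar1 was lower in hippocampus over both treatments by limma (log2 difference -0.51, SE 0.0819, adjusted p = 0.0439), a call lost with arrays centred on kept genes (limma adjusted p = 0.0590). Around the prolactin receptor, 6 genes were kept (median -0.06), with the signal transducer gene Stat5b at 0.33 and the inhibitors Cish at -0.21, Socs2 at 0.19 and Socs3 at -0.17. The other aquaporins kept 3 genes, all higher in hippocampus after ethanol, Aqp4 at 0.50, Aqp11 at 0.11 and Aqp5 at 0.06, where Aqp1 was at -0.42. Of the other CLIC and TRPM channel genes, Clic4 differed by -0.22, Clic1 by -0.17, Trpm7 by -0.08 and Trpm4 by -0.06. Limma called none of the genes of these partner lists for ethanol.

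Markers of neighbouring tissue gave other patterns. Meningeal fibroblast markers, from the layer that choroid plexus stroma adjoins, were lower in hippocampus than in forebrain for 11 of 11 kept genes, with medians of -1.06 after PBS and -0.58 after ethanol. The log2 of the summed level of the 14 measured was 12.30 in forebrain and 11.25 in hippocampus after PBS, and 12.16 and 11.57 after ethanol. In hippocampus 9 of 11 were higher after ethanol (median 0.29), led by the proteoglycan gene Dcn at 0.73 and the transporter gene Slc6a13 at 0.59. The lowest array for this summed level was the hippocampus PBS array, which was the highest for the choroid plexus markers, at 12.93 against 12.43 to 12.72 on the other arrays, a sum that Ttr dominates. Pericyte and smooth muscle markers were lower in hippocampus after PBS for 6 of 6 (median -0.18) and higher there after ethanol for 5 of 6 (median 0.16), led by Acta2 at 0.69 and the vitronectin gene Vtn at 0.35. The endothelial median was -0.20 between tissues after PBS, and that of microglia and macrophages -0.25.

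Genes of the tissue from which the plexus grows were mixed. Roof plate and cortical hem genes kept 14, of which 9 were higher in hippocampus after ethanol (median 0.14), while the Wnt ligand gene Wnt7b differed by -0.88, the Wnt agonist genes Rspo3 by -0.54 and Rspo2 by -0.35, and the zinc finger factor gene Zic1 by 0.38. Cilia and ependyma genes kept 7, with a median of -0.05 for ethanol in hippocampus and 2 of 7 higher. Their leading members by ethanol difference were Myb at -0.16 and Rfx2 at 0.12. A single eye marker was kept, the retinaldehyde-binding protein gene Rlbp1, also expressed by glia, which read 8.82 in forebrain and 9.16 in hippocampus after PBS, and 8.63 and 8.50 after ethanol. The 1 kept pineal and subcommissural gene, Spdef, differed by 0.12, and the 1 kept erythroid gene, Alas2, by -0.04 (0.06 with centring on kept genes), both for ethanol in hippocampus. Oligodendrocyte lineage markers kept 7 (median 0.09 in hippocampus and 0.12 in forebrain after ethanol), with Sox10 at 0.34 and Cnp at 0.26 in hippocampus.

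Hippocampal field markers were higher in hippocampus for 7 of 13 kept genes after PBS (median 0.02) and for 6 of 13 after ethanol. After PBS 3 of 13 were higher by 0.322 and 0 lower, where 168 and 503 of all 11013 kept genes were. After ethanol 0 of 13 were higher and 2 lower, where 132 and 603 of all kept genes were. The log2 of their summed level was 12.85 in forebrain and 13.09 in hippocampus after PBS, and 12.86 and 12.84 after ethanol. Of these, Neurod6 read 10.81 in forebrain and 11.29 in hippocampus after PBS, and 10.79 and 10.73 after ethanol, and Lhx2 read 9.94 and 10.21, then 9.88 and 9.55. Both read highest on the hippocampus PBS array. They were named for their large ethanol difference in hippocampus, which uses that array, so this likeness to the choroid plexus markers follows partly from the choice. In hippocampus thalamic and diencephalic markers were higher after ethanol for 7 of 8 (median 0.25), with Calb2 at 0.87 and Tcf7l2 at 0.84. Forebrain neuron genes kept 8 and had, for ethanol in hippocampus, a median of 0.09, Neurod2 at -0.62 and the GABA-synthesizing enzyme gene Gad1 at 0.51.

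**Figure D4:**
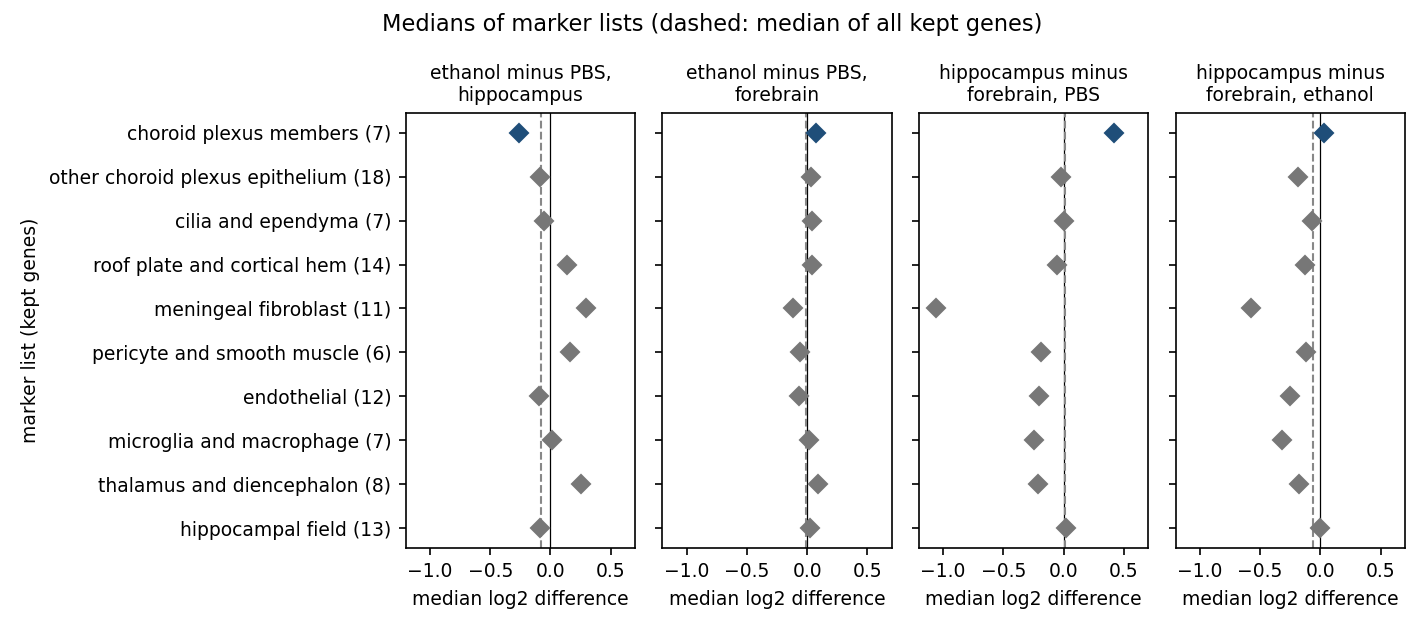
Median log2 difference (horizontal axis) of the kept genes of 10 marker lists, with the number kept in parentheses, in the 4 comparisons of 2 arrays each; the dashed line is the median of all kept genes. The choroid plexus markers (blue) have medians of -0.26, 0.08, 0.42 and 0.03 from left to right, and the meningeal list has -1.06 and -0.58 between tissues.

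Genes with a pattern close to the markers were sought among 564 other kept genes with a range of at least 0.5 over 4 arrays. Closeness was the Euclidean distance from the median centred profile of the markers. Genes that vary less were not searched. The markers Sostdc1 (range 0.42), Aqp1 (0.42), Otx2 (0.35) and Trpm3 (0.20) would themselves not reach that range. The 8 nearest were Snhg16 (distance 0.0809), Fam210b (0.0865), Tyms (0.109), Ccdc80 (0.116), Car12 (0.119), Msra (0.131), Bub1 (0.133) and Abracl (0.136). Snhg16, a non-coding host gene, read 7.17, 7.68, 7.21 and 7.26 in forebrain PBS, hippocampus PBS, forebrain ethanol and hippocampus ethanol. Ccdc80, a secreted matrix protein gene, read 8.66, 9.17, 8.72 and 8.67 in the same order. Tyms, the thymidylate synthase gene, read 7.16, 7.66, 7.38 and 7.41. Bub1, a mitotic checkpoint kinase gene, read 7.97, 8.45, 7.93 and 7.98. Only Car12 of the 8 stands on the longer choroid plexus list, and likeness over 4 arrays is a description of these arrays. Among the markers, the distance from the same profile was 0.0287 for Sostdc1, 0.126 for Aqp1, 0.184 for Clic6, 0.204 for Ttr, 0.208 for Folr1, 0.253 for Otx2 and 0.404 for Trpm3.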

How the data were processed

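Per the labels' protocols, Trizol RNA (6 ug for each array) was converted to biotinylated cRNA for 4 Affymetrix arrays. MAS5 is named, per the submitters' processing notes. Its version and the scaling of arrays were not given in the sources used. The authors' deposited values are on a log2 scale as read from the values (1.58 to 13.96), and array medians over all 35557 probe sets lie between 7.11 and 7.13. Probe sets were named through the platform annotation, in which 21789 had 1 symbol, 1621 had several and 12147 had none. The probe set with the highest mean stood for a gene, and 11013 genes reached the filter. Differences of 2 arrays were counted as apart from 0.322 on, without a test. limma 3.58.1 in R 4.3.3 was fitted to all kept genes with treatment and tissue as additive terms and a variance trend. The threshold for adjusted p was 0.05. The fit was also run on simulated data with ethanol changes equal in both tissues, which does not cover the unequal ethanol differences of the markers. Python 3.11.15 did the rest. RefSeq sequences are from GRCm38.p6, and every Mir204 arm was placed by its coordinates. The markers, lists and fold were chosen with earlier results of these data known. Genes named outside the 10 markers were the kept members with the largest ethanol difference in hippocampus, up to 4 per list and 2 per cell type list, all kept members of lists with at most 6 genes, and the 8 nearest in pattern. Igf2, Slc4a10, Kcne2, Cldn2, Cdh1, Folr2 and the Mir204 probe set fall outside this rule and were added after their values were seen. The number of arrays limits the precision.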

Additional observations from a re-analysis of the deposited data

Results flagged for a closer look

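For 6 markers the ethanol difference had opposite signs in the 2 tissues, each with 1 array per group, so that the difference between tissues was not tested. As deposited, it was below 0 in hippocampus and above 0 in forebrain for each of them, as for 27% of kept genes. For Trpm3 the hippocampus value was -0.00033 after quantile normalization and 0.01 with centring on kept genes, so its sign depended on the scaling. The hippocampus difference minus the forebrain difference was -0.58 for Otx2 (-0.25 and 0.33), -0.45 for Aqp1 (-0.42 and 0.02), -0.39 for Sostdc1 (-0.32 and 0.07), -0.34 for Folr1 (-0.26 and 0.08), -0.30 for Ttr (-0.20 and 0.11) and -0.16 for Trpm3 (-0.09 and 0.08).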

How the results depend on the processing

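With no replicates, a value was taken as moved when it changed by over 1.5 times. For the median of the kept markers this happened with the 75th percentile filter, which leaves 2 markers, Ttr and Trpm3: -0.14 for ethanol in hippocampus, 0.26 between tissues after PBS and -0.23 for the difference of the ethanol differences. The median for ethanol in hippocampus became -0.16 with arrays centred on kept genes, a setting chosen after seeing the data, and that between tissues after ethanol became 0.12 with it and 0.075 without a filter. Markers past 0.322 on the log2 scale became 0 lower in hippocampus and 0 higher in forebrain after ethanol with the 75th percentile filter or at 1.5-fold. Between tissues after PBS they became 1 with that filter and 2 at 1.5-fold, and after ethanol 2 with arrays centred on kept genes. The limma calls between tissues became 2 after quantile normalization (Ttr and Folr1), 0 without a filter and 0 without a variance trend. Over all genes they were 124 as deposited, 190 with centring on all probe sets, 416 after quantile normalization, 66 with centring on kept genes, 37 without a filter and 27 without a variance trend, and the calls for Slc4a10 and Lpar1 were lost in the last 3 of these. For ethanol limma called 0 genes, but 14 after quantile normalization, 7 with the 75th percentile filter and 2 with centring on kept genes, no marker among them. Other values of these results kept their direction and stayed within 1.5 times, and centring on all probe sets moved none. Averaging probe sets moved none either, but it could not change a marker's difference, since each measured marker has 1 probe set. In single markers 12 of 152 alternative values moved, all under quantile normalization or centring on kept genes. Many of the 152 could not move, because each measured marker has 1 probe set. Averaging probe sets or changing the filter leaves the value of a single marker as it was. Under the rescalings no marker difference past 0.322 changed sign. Trpm3 for ethanol in hippocampus and Aqp1 between tissues after ethanol both turned to 0.01 with centring on kept genes. Under the scalings tried, Clic6 and Aqp1 were the markers lower by 0.322 in hippocampus after ethanol, where the share of kept genes was 5.95% as deposited, 3.26% after quantile normalization and 2.28% with centring on kept genes. No paired test within a comparison was possible because each group has 1 array, and leaving out an array leaves no residual degree of freedom.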
